A study of Mus musculus with 15 samples.

Results

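The Wnt genes of 4T1 cells, an established mouse mammary carcinoma line, were examined by bulk RNA-seq. The genes follow a rule on their names. They are the rows of the count table whose whole symbol is Wnt, Fzd, Dkk or Sfrp followed by digits and at most 1 letter, together with Lrp5, Lrp6, Axin1, Axin2, Lef1, Tcf7, Tcf7l1, Tcf7l2, Ctnnb1, Apc, Znrf3 and Rnf43. This gave 49 of the 40402 genes listed, made up of 19 Wnt, 10 Fzd, 4 Dkk and 4 Sfrp symbols and the 12 named genes. The cells were wild type by their labels and fell into 5 conditions. They were left untreated, or were given an extract of blackberry (BLA) or of blueberry (BLU), or gold nanoparticles made with blackberry (BLA-A) or with blueberry (BLU-A), in each case 24 h after seeding. The labels name no vehicle for the untreated cells, and the length of treatment is not given in the sources used here.

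The count table has 3 columns per condition. They differed by less than sampling noise (chi-square per degree of freedom 0.0951 to 0.475), so their mean was used as 1 library per condition. No condition therefore has a replicate, and a difference between 2 conditions compares 2 libraries with no p-value. Library totals ran from 25613778 to 26956442 counts, at which 3 counts are 0.111 to 0.117 CPM, the count scaled to a fixed library total. Intervals below are 95% intervals that cover counting error only. The labels give a different batch date to each of the 15 samples, so batch and treatment cannot be told apart. Of 7 epithelial markers, Epcam, Cdh1, Krt8, Krt18 and Krt7 were well detected. Krt14 had 10 to 20 counts per library and Krt5 was at 0. The summed level of the 7 was 939.5 to 1680.1 CPM. The 7 fibroblast markers summed to 88.4 to 103.7 CPM, nearly all of it Pdgfra (2277 to 2783 counts), with Col3a1 at 1 count or fewer and Lum at 0. The 6 leukocyte markers summed to 8.77 to 11.9 CPM, and the 4 endothelial markers to 2.94 to 7.03 CPM. In bulk RNA, fewer cells that use a gene and less RNA per cell cannot be told apart.

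Wnt proteins are secreted ligands that bind Frizzled receptors at the cell surface, usually with the co-receptors Lrp5 and Lrp6. In the canonical branch this stops a complex built on Axin and Apc from marking β-catenin, the product of Ctnnb1, for destruction, and β-catenin then acts in the nucleus with factors of the TCF/LEF family. Dickkopf (Dkk) and secreted frizzled-related (Sfrp) proteins act outside the cell, mostly as inhibitors, and the ubiquitin ligases Rnf43 and Znrf3 remove Frizzled receptors from the surface. The pathway is known in the mammary gland for its part in stem and progenitor cells and in tumours.

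Of the 49 genes, 32 reached 1 CPM in at least 1 library and were kept for the fold comparisons. Of these 32, 25 did so in all 5 libraries. Dkk2, Dkk3, Fzd9, Wnt3 and Wnt4 passed through 1 library alone and Wnt11 through 2, and such genes can pass only where they are high. For Dkk2 that library was the untreated one. Fold changes are log2 differences of TMM-normalized CPM plus 0.5, and a gene was past the fold when this exceeded 1 in size. That is close to a 2-fold difference at high levels, and the added 0.5 demands a larger one at low levels. In BLU, Wnt4 at 3.0 times and Dkk3 at 3.51 times the untreated level were under the fold. All 4 treatments were set against the same untreated library. In BLA, 3 of the 32 genes were past the fold, beside 16.5% of all 17647 genes kept. In BLU 5 were, beside 10.3% of all genes. In BLA-A 7 were, beside 20.9%, and in BLU-A 3 were, beside 7.85%. As shares of the 32 genes these were 9.38% in BLA, 21.9% in BLA-A, 15.6% in BLU and 9.38% in BLU-A, below the share of all genes in BLA and above it in BLU. With 1 CPM demanded in every library, a choice made after the values were seen, the numbers were 1 of 25 in BLA (8.22% of 13262 genes), 4 in BLA-A (14.0%), 2 in BLU (4.3%) and 0 in BLU-A (2.14%). The median log2 fold change of the 32 genes was -0.16 in BLA, 0.18 in BLA-A, -0.087 in BLU and -0.098 in BLU-A, with medians over all genes between -0.013 and 0.0015. Dkk2 was the 1 gene of the 32 past the fold in all 4 treatments, lower in each, as were 1.35% of all genes. Scaling moved the BLA-A values of all genes together. The median over all genes there went from -0.013 to -0.19 when scaled by total counts and to 0.15 with TMM factors taken after a filter of 10 counts, so that small differences in BLA-A below have no fixed sign.

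**Figure D1:**
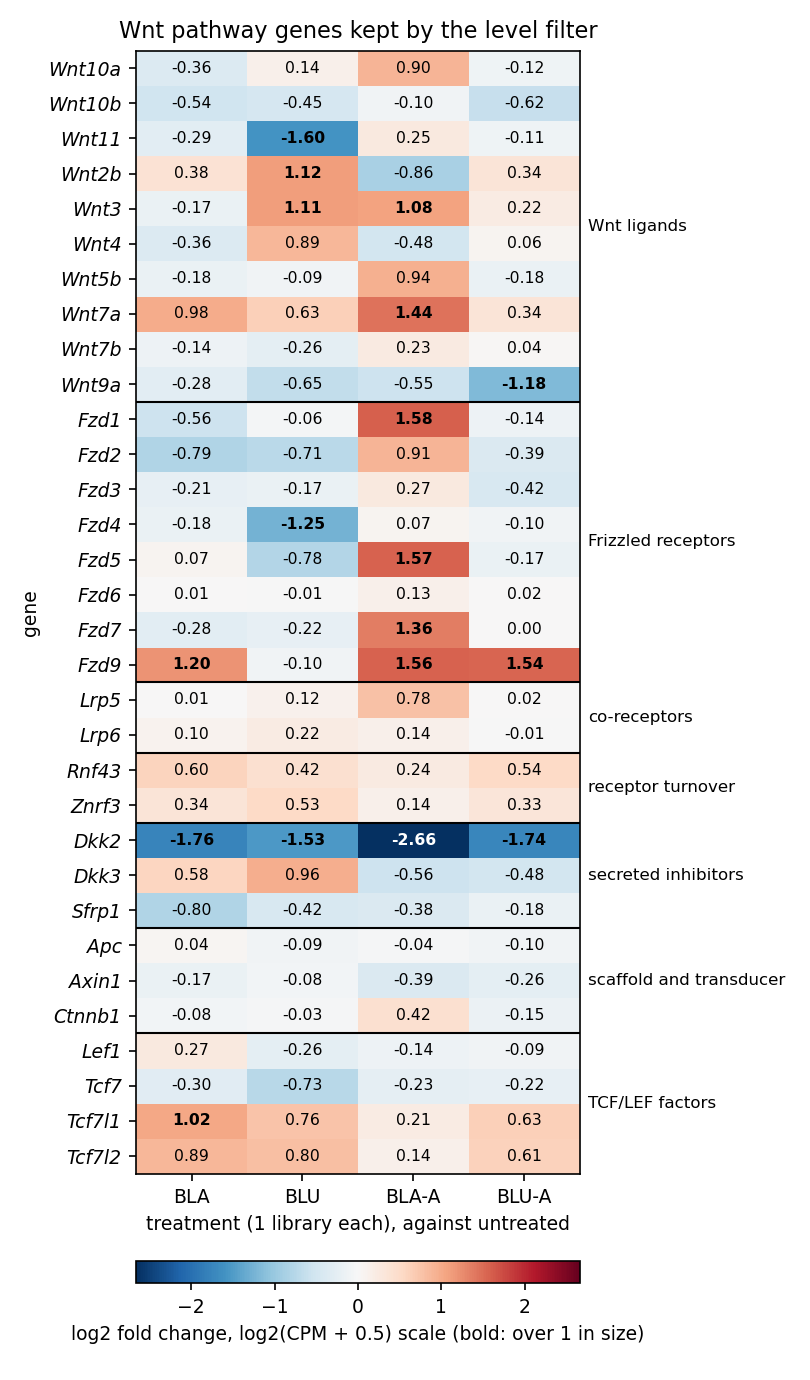
Log2 fold change against untreated cells (colour and number, log2 of CPM plus 0.5) of the 32 kept genes (rows, by role) in the 4 treatments (columns, 1 library each). Bold marks values over 1 in size, among them Fzd1, Fzd5, Fzd7 and Fzd9 in BLA-A and Dkk2 in all 4 treatments.

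The highest level among these genes was that of Ctnnb1, which encodes β-catenin. Per kb of annotated exon it stood at 76.7 CPM in untreated cells, and its count was 16678 in untreated cells, 16144 in BLA, 19380 in BLA-A, 16847 in BLU and 14970 in BLU-A. Of the 5, BLA-A was the highest and BLU-A the lowest, with ratios to untreated of 1.34 (1.31 to 1.36) and 0.903 (0.883 to 0.923), neither of them past the fold. Next per kb of exon in untreated cells came the ligand gene Wnt7b at 32.5 CPM and the receptor gene Fzd6 at 28.5 CPM. Axin1 followed at 16.3, Lrp5 at 15.5, Znrf3 at 14.2, Lrp6 at 11.7 and Tcf7l2 at 10.2 CPM per kb of exon. Reads were counted on whole genes, introns included. By mean level over the 5 libraries and per kb of gene span instead, Fzd2, Fzd7 and Fzd5 entered the first 8 genes, and Znrf3, Tcf7l2 and Lrp6 left them. Wnt7b held 67.3% of the summed Wnt level per kb of exon in untreated cells and between 55.7% and 67.9% in the treated ones. This sum, also used for Wnt7a below, includes Wnt5b, whose counts cannot be read as its own alone. Wnt5b made up 12.6% in untreated cells, 17.1% in BLA-A and 10.9% to 12.3% in the other treatments. Fzd6 held 62.2% of the summed Frizzled level per kb of exon in untreated cells. In the treatments it held 67.9% in BLA, 45.6% in BLA-A, 69.8% in BLU and 65.2% in BLU-A. These shares depend on the length used. Per kb of gene span, the mean level over the 5 libraries was 6.18 CPM for Fzd6 and 5.8 CPM for Fzd2.

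Among the ligands, Wnt7b had 4440 counts in untreated cells, 4108 in BLA, 4540 in BLA-A, 3822 in BLU and 4528 in BLU-A, and stayed within a log2 fold change of 0.26 in size. Its relative Wnt7a, which like Wnt7b is a ligand of epithelial cells, had 407 counts in untreated cells and 836 in BLA, 981 in BLA-A, 657 in BLU and 517 counts in BLU-A. All 4 treated libraries were above the untreated one. The ratio was 2.77 (2.47 to 3.12) in BLA-A, past the fold, and 2.01 (1.78 to 2.27) in BLA, 1.56 (1.38 to 1.77) in BLU and 1.28 (1.12 to 1.46) in BLU-A, under it. Wnt7a made up 9.62% of the summed Wnt level per kb of exon in untreated cells and 19.3% in BLA, 18.8% in BLA-A, 15.7% in BLU and 12.1% in BLU-A.

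Wnt2b, a ligand of the canonical branch, had 159 counts in untreated cells, 216 in BLA, 71 in BLA-A, 374 in BLU and 204 in BLU-A. It was past the fold in BLU, 2.27 times the untreated level (1.88 to 2.76). BLA-A was the 1 treated library below the untreated one, at a log2 fold change of -0.86. Wnt9a, another ligand, had 67 counts in untreated cells and 54 in BLA, 36 in BLA-A, 39 in BLU and 22 counts in BLU-A. It was lower in each treated library and past the fold in BLU-A, 3.03-fold lower (1.85 to 5.15).

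The other ligands past the fold rested on few counts. Wnt3 had 5 counts in untreated cells, 3 in BLA, 22 in BLA-A, 27 in BLU and 8 in BLU-A, with ratios of 5.22 (1.98 to 17.4) in BLU and 5.06 (1.87 to 17.1) in BLA-A. Wnt3 was under the fold in BLA-A when scaled by total counts (0.97) and in both treatments with a pseudocount of 2 CPM (0.45 and 0.43), and without the columns numbered 2 it did not pass the level filter. Wnt11 had 27 counts in untreated cells, 20 in BLA, 30 in BLA-A, 0 in BLU and 24 in BLU-A. Taking 3 counts as the limit that a count of 0 allows, it was 9.31-fold lower in BLU, and the counting interval of the ratio reached to 7.06-fold lower. A pseudocount of 2 CPM also left Wnt11 (-0.59) and Wnt2b (0.97) under the fold in BLU and Wnt9a (-0.67) in BLU-A. Wnt10a, Wnt10b, Wnt4 and Wnt5b were not past the fold in any treatment, with log2 fold changes from -0.62 (Wnt10b in BLU-A) to 0.94 (Wnt5b in BLA-A). The remaining 9 ligand genes (Wnt1, Wnt16, Wnt2, Wnt3a, Wnt5a, Wnt6, Wnt8a, Wnt8b and Wnt9b) did not reach 1 CPM anywhere and had between 0 and 23 counts per library. Wnt2, chosen after its values were seen, had 14 counts in untreated cells and 0, 1, 0 and 0 counts in the treated ones, and 12.2% of all genes with 10 to 24 counts in untreated cells likewise had at most 2 in each treated library. Wnt8b had its highest count in BLU-A, at 23, and 0 to 10 elsewhere.

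The values of Wnt5b, a ligand known mostly for branches that do not need β-catenin, cannot be read as those of the gene alone. Fbxl14, which encodes an F-box protein, lies wholly within Wnt5b on the opposite strand (GRCm39 chr6:119456629-119459591, inside Wnt5b at chr6:119409323-119521897). Wnt5b had 921 counts in untreated cells, 829 in BLA, 1549 in BLA-A, 892 in BLU and 808 in BLU-A. Fbxl14 had 882, 785, 1511, 834 and 735 counts in the same order. The count of Wnt5b exceeded that of Fbxl14 by 38 to 73 counts in each library, and both were highest in BLA-A. The study's methods state strand-specific counting of merged alignments listed as single-end, and whether both mates of a pair entered them is not given in the sources used here. There were 490 genes that lie within a gene on the opposite strand and had at least 100 counts in every library. Of these, 375 had a host gene with at least 0.8 of their count in all 5 libraries. For 58 the host had under 0.1 of it in at least 1. A host can also reach such a share with reads of its own. Fzd6, with at least 4948 counts, lies within Gm33123 on the opposite strand, which had 0 in all 5 libraries. Which of the reads came from Wnt5b and which from Fbxl14 cannot be told apart here. Of the other genes past the fold, Tcf7l1 holds 2 listed genes of the opposite strand, Gm15401 with 129 to 170 counts and Gm31249 with 52 to 151 counts, against 833 to 1741 of its own. Gm33770, which overlaps Wnt11, had 15 counts in untreated cells and 0 to 3 in treated ones, and Gm32099, which overlaps Wnt10a, had 140 counts in BLA-A and 29 to 83 elsewhere.

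**Figure D2:**
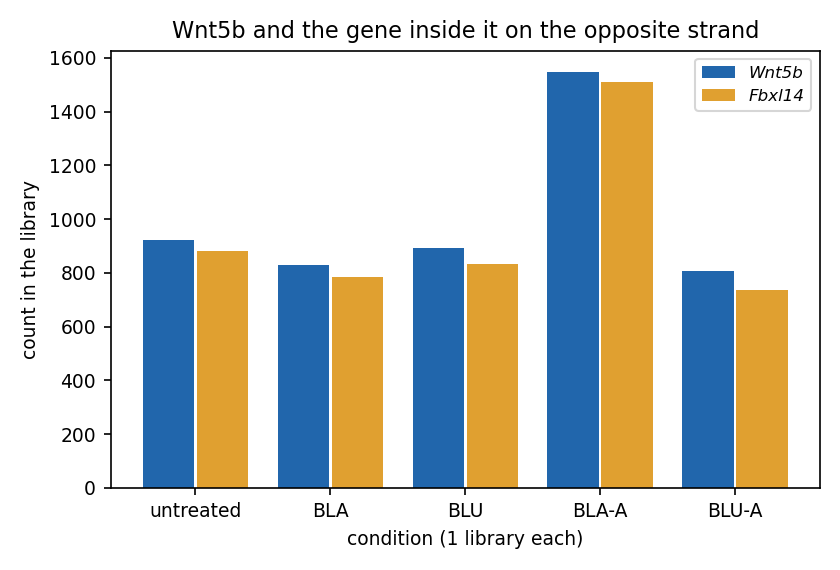
Counts of Wnt5b and of Fbxl14, a gene inside it on the opposite strand (bars, from 0), in the 5 conditions (1 library each). The bars of a pair differ by 38 to 73 counts in every condition.

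Of the Frizzled receptors, Fzd1, Fzd2, Fzd5 and Fzd7 stood furthest from untreated in BLA-A, the treatment in which most genes were past the fold overall (20.9%), Fzd4 in BLU and Fzd3 in BLU-A. Fzd5 had 339 counts in untreated cells, 365 in BLA, 898 in BLA-A, 199 in BLU and 298 in BLU-A, and was 3.05 times the untreated level in BLA-A (2.68 to 3.46). Fzd7, a receptor known in mammary stem cells and triple-negative breast cancer, had 824 counts in untreated cells, 690 in BLA, 1864 in BLA-A, 732 in BLU and 821 in BLU-A, a ratio of 2.60 in BLA-A (2.39 to 2.83). Fzd1 had 57 counts in untreated cells, 35 in BLA, 171 in BLA-A, 56 in BLU and 50 in BLU-A, a ratio of 3.45 in BLA-A (2.54 to 4.74). For each of these receptors BLA-A was above the other 4 libraries, and in none of them was another treatment past the fold. Fzd2 went the same way without passing it, with 585 counts in untreated cells, 339 in BLA, 968 in BLA-A, 365 in BLU and 440 in BLU-A. Its log2 fold changes were 0.91 in BLA-A and -0.79, -0.71 and -0.39 in BLA, BLU and BLU-A.

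Fzd6 and Fzd3 kept close to the untreated level. Fzd6 had the highest counts of the Frizzled genes. They were 5200 in untreated cells, 5334 in BLA, 4948 in BLA-A, 5347 in BLU and 5233 in BLU-A. Its log2 fold changes were -0.0081 to 0.13, of either sign under other scalings. Fzd3, which like Fzd6 is known in planar polarity, had log2 fold changes from -0.42 in BLU-A to 0.27 in BLA-A. Fzd4, a receptor best known in blood vessels of the retina, was past the fold in BLU, with 253 counts in untreated cells, 226 in BLA, 232 in BLA-A, 102 in BLU and 234 in BLU-A. It was 2.56-fold lower in BLU (2.03 to 3.26), with the other treated libraries close to the untreated one. Fzd9 was near the detection limit with 1, 20, 25, 0 and 28 counts in untreated cells, BLA, BLA-A, BLU and BLU-A, so that it was past the fold in BLA, BLA-A and BLU-A with a ratio in BLA of 19.6 (3.13 to 811), and in none of them with a pseudocount of 2 CPM (0.42, 0.60 and 0.59). Fzd8 and Fzd10 were at 0 in all 5 libraries. The summed level of the 10 Frizzled genes was 303.3 CPM in untreated cells, 284 in BLA, 430.4 in BLA-A, 274.2 in BLU and 291.1 in BLU-A.

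**Figure D3:**
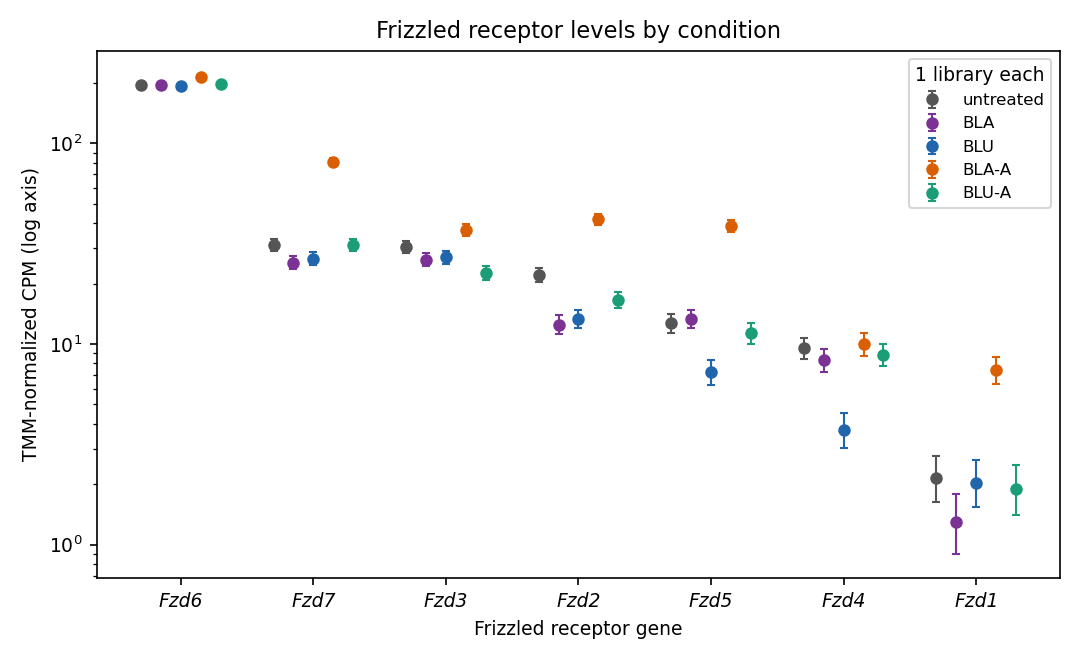
TMM-normalized CPM (log axis) of 7 Frizzled receptor genes in the 5 conditions (points, 1 library each), with bars for the 95% counting interval. Fzd1, Fzd2, Fzd5 and Fzd7 are highest in BLA-A, while Fzd6 spans 194.3 to 213.8 CPM.

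Several Frizzled genes have short, simple gene structures, and this structure moved with BLA-A over all genes. Fzd1, Fzd2 and Fzd9 have 1 exon in every annotated transcript. Over the 183 kept protein-coding genes of that kind the median log2 fold change was 0.31 in BLA-A, and -0.53, -0.39 and -0.17 in BLA, BLU and BLU-A, and 22.4% were above 1 in BLA-A. Fzd4, Fzd5 and Fzd7 have at most 2 or 3 exons, a class of 829 genes with a median of 0.17 and 16.3% above 1 in BLA-A. Among the 12625 genes with 4 or more exons the median was -0.0061 and 7.03% were above 1. The part of gene structure in the Frizzled values was not tested.

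The promoter windows of the receptors that stood highest in BLA-A are given here with those of Wnt7a and Wnt11, as the bases before each start that lie outside the annotated gene. Of the 49 genes, 32 had a window in the RefSeq promoter table (GRCm38.p6), with 42 windows in all. The sequences below were placed on GRCm39 by exact match and are printed from 5′ to 3′ on the strand of the gene, with any copy of the TCF/LEF core motif CTTTGAT, read on either strand, in capitals. The first is Fzd1 on the minus strand (chr5:4808217-4808466), then Fzd5 on the minus strand (chr1:64776935-64777159), Fzd7 on the plus strand (chr1:59521056-59521268), Wnt7a on the minus strand (chr6:91388461-91388585) and Wnt11 on the plus strand (chr7:98484069-98484318).
Fzd1: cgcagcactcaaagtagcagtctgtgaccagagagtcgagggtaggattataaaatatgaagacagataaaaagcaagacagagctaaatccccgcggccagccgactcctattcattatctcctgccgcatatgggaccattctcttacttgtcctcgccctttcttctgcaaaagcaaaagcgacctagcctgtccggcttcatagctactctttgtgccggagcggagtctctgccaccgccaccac
Fzd5: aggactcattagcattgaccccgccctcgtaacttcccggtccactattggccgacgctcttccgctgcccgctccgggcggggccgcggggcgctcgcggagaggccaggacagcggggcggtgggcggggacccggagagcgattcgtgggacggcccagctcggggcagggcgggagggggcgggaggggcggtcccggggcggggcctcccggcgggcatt
Fzd7: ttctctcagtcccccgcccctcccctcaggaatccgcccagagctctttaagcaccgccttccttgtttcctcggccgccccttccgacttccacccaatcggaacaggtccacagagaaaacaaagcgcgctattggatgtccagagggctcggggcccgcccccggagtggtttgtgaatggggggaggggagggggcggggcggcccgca
Wnt7a: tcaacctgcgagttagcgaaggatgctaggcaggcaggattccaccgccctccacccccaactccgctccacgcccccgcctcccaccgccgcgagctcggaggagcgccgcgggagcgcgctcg
Wnt11: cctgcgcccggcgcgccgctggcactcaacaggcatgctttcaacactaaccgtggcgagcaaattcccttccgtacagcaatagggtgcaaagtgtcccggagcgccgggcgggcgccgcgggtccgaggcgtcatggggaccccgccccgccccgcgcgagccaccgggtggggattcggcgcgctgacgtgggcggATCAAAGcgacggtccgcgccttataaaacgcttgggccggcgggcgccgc
In the 250 bases before the start, 2 of the 42 windows held the motif, which is 4.76%. They were 1 of Wnt11 (capitals above, starting 51 bases before the start) and 1 of Wnt5b. The Wnt5b window belongs to a start 95550 bases inside the annotated gene. For the Wnt5b start nearest the annotated one, 589 bases away, the window held no copy. The same letters were in 1053 of all 32851 windows, or 3.21%. A match describes these letters in this window and is not a binding site.

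The co-receptor gene Lrp5 had 4061 counts in untreated cells, 4190 in BLA, 6069 in BLA-A, 4551 in BLU and 4090 in BLU-A. It was 1.72 times the untreated level in BLA-A (1.65 to 1.79), under the fold, and within a log2 fold change of 0.12 in the other treatments. Lrp6, its close relative, had 4786 counts in untreated cells and 5230 in BLA, 4603 in BLA-A, 5773 in BLU and 4723 in BLU-A, with log2 fold changes from -0.011 to 0.22. The ubiquitin ligases that lower the number of Frizzled receptors were above untreated in CPM in each of the 4 treatments without passing the fold, Znrf3 in BLA-A with the sign reversed (-0.055) when scaled by total counts. Znrf3 had 3038 counts in untreated cells and 3944 in BLA, 2910 in BLA-A, 4540 in BLU and 3798 in BLU-A, with log2 fold changes of 0.34, 0.14, 0.53 and 0.33. Rnf43 had log2 fold changes of 0.60, 0.24, 0.42 and 0.54 in the same order. The smallest value of both was in BLA-A.

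Dkk2, an inhibitor that binds Lrp5 and Lrp6 and can also act weakly as an activator, had 78 counts in untreated cells (61.7 to 97.3) and 14 in BLA, 1 in BLA-A, 19 in BLU and 14 in BLU-A. Every treated library was below the untreated one and their counting intervals did not overlap with it. Dkk2 reached 1 CPM in untreated cells alone (2.93 CPM, against 0.0432 to 0.691 in treated ones). It therefore passed the level filter only where it was high. It was 5.69-fold lower in BLA (3.20 to 10.9), 4.25-fold lower in BLU (2.55 to 7.42) and 5.54-fold lower in BLU-A (3.11 to 10.6), and in BLA-A its 1 count gave a ratio of 0.0147 (0.000369 to 0.0846). Dkk2 spans 95.7 kb on chromosome 3 of GRCm39 (chr3:131790336-131886065). Among genes with low counts in untreated cells, long ones were lower past the fold more often than short ones. There were 233 protein-coding genes with 50 to 100 counts in untreated cells and a span of 50 to 150 kb. Their median log2 fold change was -0.16 in BLA, -0.72 in BLA-A, -0.23 in BLU and -0.26 in BLU-A. Of these genes, 26.2% were lower past the fold in BLA, 37.3% in BLA-A, 18.9% in BLU and 19.7% in BLU-A. In all 4 treatments 16 of them were, or 6.87%, against 1.17% of the 257 genes at the same counts with a span under 10 kb. The part of gene length in the Dkk2 values was not tested. With a pseudocount of 2 CPM instead of 0.5, Dkk2 was past the fold in BLA-A (-1.27) and under it in BLA (-0.97), BLU (-0.87) and BLU-A (-0.96).

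The other inhibitors were at low levels except Sfrp1. Sfrp1, which binds Wnt ligands and is often silenced in breast tumours, had 504 counts in untreated cells and 290 in BLA, 335 in BLA-A, 386 in BLU and 441 in BLU-A. It was lower in each treated library and past the fold in none, with log2 fold changes of -0.80, -0.38, -0.42 and -0.18. Dkk3, a divergent member of the family, had 8 counts in untreated cells, 19 in BLA, 1 in BLA-A, 29 in BLU and 2 in BLU-A. It stood higher in both extracts and lower in both nanoparticle libraries than in untreated cells, under the fold in all 4. Its ratio to untreated in BLU was 3.51 (1.56 to 8.87). The intervals in BLA (0.971 to 6.14), BLA-A (0.00324 to 1.07) and BLU-A (0.026 to 1.26) held 1. Dkk3 reached 1 CPM in BLU alone, so it passed the level filter only where it was high. Sfrp2 had 11 counts in untreated cells and 0 in each treated library, which makes it 3.19- to 3.79-fold lower at 3 counts per library, with counting intervals that reached to between 2.18- and 2.6-fold lower. Dkk1 had 0 to 4 counts, Dkk4 0 to 10 and Sfrp4 0 or 1, and Sfrp5 was at 0 throughout.

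Axin2, a widely used transcriptional target of β-catenin and itself a negative regulator, did not reach 1 CPM in any library. It had 17 counts in untreated cells and 2 in BLA, 1 in BLA-A, 1 in BLU and 2 in BLU-A. The ratios to untreated were 0.115 (0.0129 to 0.485), 0.0676 (0.00162 to 0.432), 0.0569 (0.00136 to 0.363) and 0.118 (0.0133 to 0.498), so that each counting interval left out 1. Over all genes with 10 to 24 counts in untreated cells, 466 of 3811, or 12.2%, had at most 2 counts in each treated library. Axin2 spans 30.4 kb, and of the 868 protein-coding genes at these counts that span 10 to 50 kb, 90 did so, or 10.4%. The summed level of the 4 Dkk genes was 3.46 CPM in untreated cells and 1.47 in BLA, 0.0864 in BLA-A, 1.74 in BLU and 1.13 CPM in BLU-A.

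**Figure D4:**
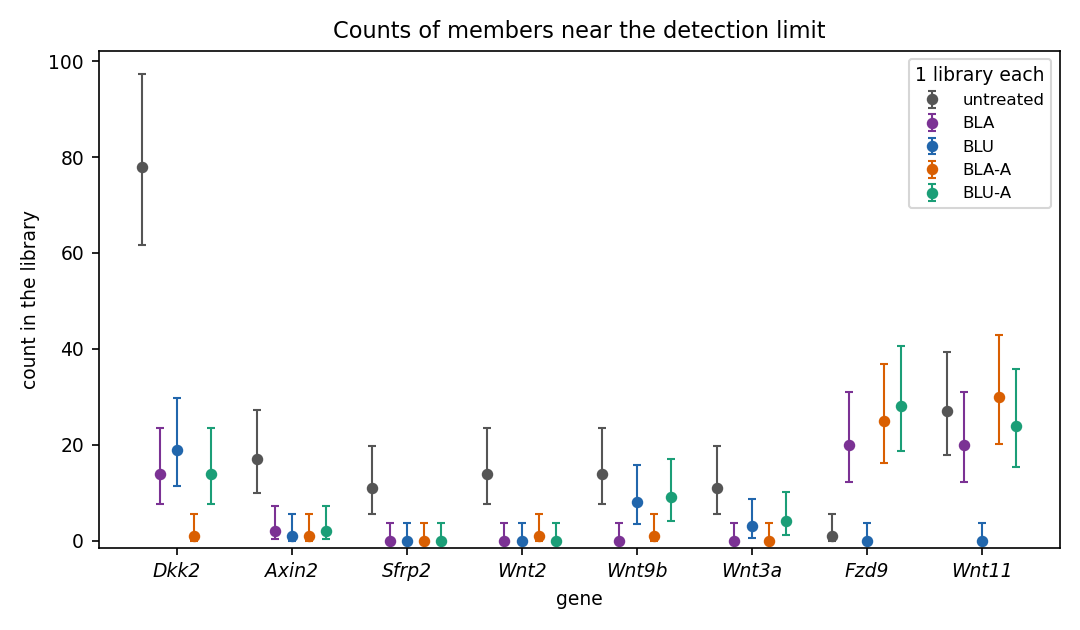
Counts (points) of 8 Wnt pathway genes near the detection limit in the 5 conditions (1 library each), with bars for the 95% counting interval. Dkk2 is at 78 counts in untreated cells and at 19 or fewer in treated ones, Axin2 at 17 and at 2 or fewer, and Fzd9 is higher in 3 treated libraries.

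Of the genes of the destruction complex, Apc, its scaffold, had 4328 counts in untreated cells and 3669 to 4565 in treated ones, with log2 fold changes from -0.097 to 0.045 and an unsettled sign in BLA-A. Axin1, the scaffold whose amount limits the complex, had 3360 counts in untreated cells and 3049 in BLA, 2220 in BLA-A, 3284 in BLU and 2788 in BLU-A. It was lower in each treated library with log2 fold changes of -0.17, -0.39, -0.081 and -0.26.

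Of the TCF/LEF factors, Tcf7l1 was past the fold in 1 treatment and the others in none. Tcf7l1, mostly a repressor, had 833 counts in untreated cells, 1741 in BLA, 839 in BLA-A, 1464 in BLU and 1290 in BLU-A. It was past the fold in BLA at 2.04 times the untreated level (1.88 to 2.22), a call that scaling by total counts, DESeq2 size factors or a pseudocount of 2 CPM ended. Tcf7l2, which partners β-catenin in many epithelia, had 2440 counts in untreated cells, 4643 in BLA, 2335 in BLA-A, 4417 in BLU and 3712 in BLU-A. Its ratios were 1.86 (1.77 to 1.96), 1.10 (1.04 to 1.16), 1.75 (1.67 to 1.84) and 1.53 (1.45 to 1.61). Both factors stood higher in BLA, BLU and BLU-A than in BLA-A, where Tcf7l2 was at a log2 fold change of 0.14, or -0.056 when scaled by total counts. Tcf7, an activator known mostly in T cells, had 612 counts in untreated cells and 504 in BLA, 453 in BLA-A, 376 in BLU and 522 in BLU-A, with log2 fold changes from -0.73 to -0.22. Lef1 had 136 counts in untreated cells and 106 to 171 in treated ones, with log2 fold changes from -0.26 to 0.27, and the counting interval of each ratio to untreated held 1.

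Tcf7l1 and Tcf7l2 are among the longest of these genes, at 163 and 192 kb, and gene span moved with the fold changes over all genes. Among the 2364 kept protein-coding genes of 100 kb or more the median log2 fold change was 0.18 in BLA, -0.16 in BLA-A, 0.21 in BLU and 0.077 in BLU-A. Among the 2517 under 10 kb it was -0.29, 0.21, -0.24 and -0.076. Across the 32 Wnt genes, Spearman's rho between span and log2 fold change was 0.42 in BLA, -0.26 in BLA-A, 0.36 in BLU and 0.21 in BLU-A, and across 13637 protein-coding genes 0.20, -0.20, 0.27 and 0.087. These are correlations across genes of the same libraries, which share the untreated library, and genes are not independent replicates. The part of gene length in the values of Tcf7l1 and Tcf7l2 was not tested.

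**Figure D5:**
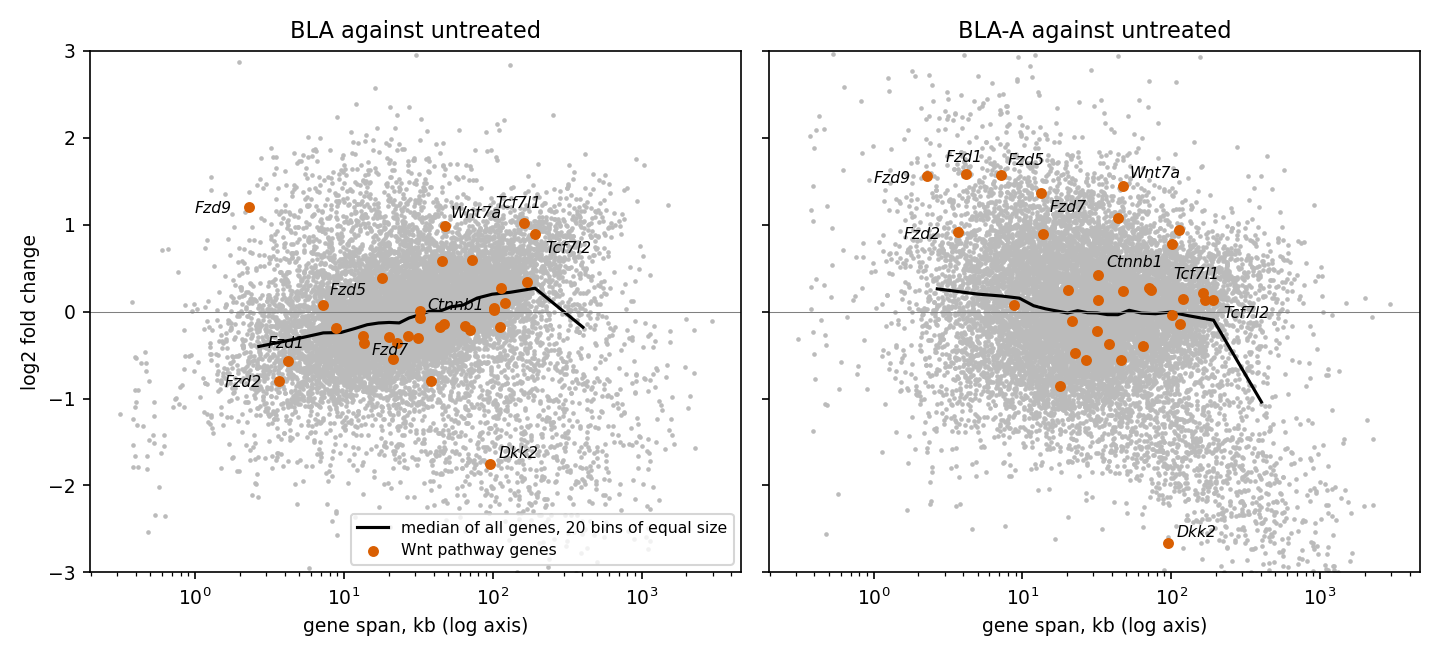
Log2 fold change against untreated cells (vertical axis, with more extreme values of other genes outside it) by gene span in kb (log axis) in BLA and in BLA-A, for all kept protein-coding genes (grey) and the 32 Wnt genes (orange). The black line is the median of all genes in 20 span bins of equal size, and the labelled Frizzled genes lie at the short end while Tcf7l1 and Tcf7l2 lie at the long end.

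The nanoparticles were also set against the extract of the same berry. In BLA-A against BLA, 9 of the 32 genes were past the fold, beside 24.5% of all genes. Fzd1 was 5.74 times its level in BLA (3.97 to 8.51), Fzd2 3.36 times (2.96 to 3.81), Fzd7 3.17 times (2.91 to 3.47) and Fzd5 2.89 times (2.56 to 3.27). Wnt10a, with 141 counts in BLA and 303 in BLA-A, was 2.53 times as high (2.06 to 3.11), and Wnt3, with 3 and 22 counts, 8.62 times (2.59 to 45). Wnt5b was past the fold too, at 2.20 times (2.02 to 2.39), with the reads it shares with Fbxl14. Wnt2b was 2.59-fold lower in BLA-A than in BLA (1.97 to 3.43), and Dkk3, with 19 counts in BLA and 1 in BLA-A, had a ratio of 0.0618 (0.00149 to 0.389). In BLU-A against BLU, 4 genes were past the fold, beside 6.79% of all genes. Fzd4 was 2.39 times its level in BLU (1.88 to 3.04). Fzd9 and Wnt11, at 0 in BLU and 28 and 24 counts in BLU-A, were 9.71- and 8.32-fold higher against 3 counts, with counting intervals that reached to 7.38- and 6.26-fold, and Dkk3 went from 29 counts to 2, a ratio of 0.0717 (0.00829 to 0.283). None of Fzd1, Fzd2, Fzd5 and Fzd7, the Frizzled genes past the fold between BLA-A and BLA, was past it between BLU-A and BLU. The difference between the 2 contrasts was not tested.

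Taking the 4 treatments as 1 group against the untreated library, edgeR's quasi-likelihood test called none of the 32 genes at a Benjamini-Hochberg adjusted p under 0.05, and 0 had an unadjusted p under 0.05. Over all genes 4 were called, or 0.0227%, and 481 had an unadjusted p under 0.05, or 2.73%. The test has 3 residual degrees of freedom, and its spread comes from differences between the treatments. Dkk2 ranked first, with a fitted log2 fold change of -2.70 and an adjusted p of 0.999, lower in 4 of 4 treated libraries. Wnt7a, Tcf7l1 and Tcf7l2 followed, each higher in 4 of 4 and also at an adjusted p of 0.999. DESeq2's Wald test gave Dkk2 a fitted log2 fold change of -2.74 and no adjusted p, so that Dkk2 could not be called there. With the BLA-A library left out, the fitted log2 fold change was -2.33 for Dkk2 and -0.64 for Fzd2. It was 0.69 for Wnt7a, 0.82 for Tcf7l1, 0.78 for Tcf7l2 and 0.41 for Znrf3. The edgeR test put these 6 first among the 32 genes. It called none of the 32 genes and 34 of all genes. In sign alone, Dkk2, Sfrp1, Wnt10b, Wnt9a, Axin1 and Tcf7 were lower in all 4 treatments, 6 of 32 beside 19.3% of all genes. Wnt7a, Lrp5, Rnf43, Tcf7l1, Tcf7l2 and Znrf3 were higher in all 4, 6 of 32 beside 19.4% of all genes. Scaling by total counts turned the sign in BLA-A of Tcf7l2 and Znrf3 and in BLA of Lrp5, DESeq2 size factors that of Lrp5 in BLA and BLU-A, and a filter of 10 counts that of Wnt10b in BLA-A.

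A wider list of 64 pathway genes held 63 listed in the table, of which 50 were kept. In BLA 3 were higher past the fold and 2 lower, in BLA-A 7 and 3, in BLU 2 and 1, and in BLU-A 0 and 1. Over all genes the share higher was 7.93%, 8.54%, 5.66% and 3.35% in that order, and the share lower 8.55%, 12.4%, 4.64% and 4.51%. Rspo2, a secreted partner of Lgr receptors that strengthens Wnt signals, had 42 counts in untreated cells and 1 in BLA, 6 in BLA-A, 14 in BLU and 6 in BLU-A. It was lower past the fold in all 4, as were 1.35% of all genes, and in BLU at a log2 fold change of -1.04. Among genes with 50 to 100 counts in untreated cells, a band above the 42 of Rspo2, 4.18% were. Ror2, a receptor tyrosine kinase that binds Wnt5a, had 47 counts in untreated cells and 4 in BLA, 1 in BLA-A, 20 in BLU and 19 in BLU-A, past the fold in BLA and BLA-A. Its relative Ror1 went the other way, with 226 counts in untreated cells and 728 in BLA, 285 in BLA-A, 537 in BLU and 415 in BLU-A, past the fold in BLA and BLU. Celsr3, a cadherin of the planar polarity branch, had 7, 33, 9, 35 and 13 counts in untreated cells, BLA, BLA-A, BLU and BLU-A. It was past the fold in BLA and BLU. Rspo2 and Ror2 reached 1 CPM in untreated cells alone, and Celsr3 in BLA and BLU alone. These genes passed the level filter only where they were high. The 50 genes had a median log2 fold change of 0.097 in BLA, 0.31 in BLA-A, 0.097 in BLU and 0.072 in BLU-A, beside medians over all genes between -0.013 and 0.0015. By role, the medians in BLA-A ran from 0.18 for other secreted inhibitors and 0.19 for target genes to 0.63 for the destruction complex and Dishevelled, 0.87 for planar polarity and 0.97 for R-spondins, of which 3 were kept. Rspo2, Ror2, Ror1 and Celsr3 each had an adjusted p of 0.999 in edgeR's test of the 4 treatments against untreated.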

How the data were processed

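Per the labels, total RNA of 4T1 cells in 5 conditions was sequenced. The values are raw counts of reads on each gene, as deposited. The authors removed ribosomal RNA, aligned reads to GRCm39 with STAR and counted in OmicsBox on whole genes, strand-specifically. The submitters' processing notes also name DESeq2 1.36.0. A deposited table of fold changes and p-values of the authors' own comparison and a table of gene set enrichment scores were not used.

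The 3 columns of a condition were averaged, rounded and used as 1 library, since in all 5 conditions their chi-square, divided by its degrees of freedom over genes averaging 10 or more counts, stayed below 1.5. No column of the count table was left out. Genes with 1 CPM in at least 1 library were kept. TMM factors and the quasi-likelihood test came from edgeR 4.0.16, with Benjamini-Hochberg adjustment over all kept genes at 0.05. Ratio intervals, at 95%, are exact conditional (Clopper-Pearson) and count intervals exact Poisson, for counting error only, as no molecular identifiers are named in the sources used here. Alternatives were scaling, filter, pseudocount, a left-out column or library, the 15 columns as samples, and DESeq2 1.42.0. R 4.3.3, Python 3.11.15 and scipy 1.17.1 were used. The test was also run on simulated data in which a changed gene had the same change in all 4 treatments. These data differ in that, so the run does not bear on the calls here. Positions came from GENCODE M39 on GRCm39, which all 49 genes matched by symbol.

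The genes and lists were chosen with earlier results of these data known. All kept members are named, and counts are given for those past the fold in a treatment, for Dkk2 and for the 8 highest per kb of exon. Of the wider list, genes past the fold in 2 or more treatments and the 3 with the largest mean change are named. Axin2, Sfrp2, Wnt2, Wnt8b, Fzd2, Sfrp1, Tcf7, Lef1, Apc, Dkk3, Wnt5b, Wnt10a and Fbxl14 are given with counts outside this rule, and these, the bands of count and gene span, the check of genes inside others and the printed promoters were chosen after values were seen. Promoters are from RefSeq on GRCm38.p6.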

Additional observations from a re-analysis of the deposited data

How the results depend on the processing

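The number of Wnt genes past the fold stayed within 1.5 times its value under scaling by total counts, DESeq2 size factors, a pseudocount of 0.1 CPM and the further demand that the counting interval of the ratio leave out 1. A pseudocount of 2 CPM left 0 in BLA, 1 in BLU, 0 in BLU-A and 0 in BLU-A against BLU. A filter of 10 counts in 1 library gave 6 in BLA and 11 in BLA-A, and no filter beyond 1 count gave 5 in BLA. The filter of 10 counts moved the median log2 fold change of all genes in BLA-A to 0.15, and scaling by total counts moved it to -0.19, with Fzd1, Fzd5, Fzd7 and Wnt7a past the fold in BLA-A under both. A demand of 1 CPM in every library, added after the values were seen, left 1 in BLA (Tcf7l1), 2 in BLU (Fzd4 and Wnt2b), 4 in BLA-A (Fzd1, Fzd5, Fzd7 and Wnt7a), 0 in BLU-A and 1 in BLU-A against BLU (Fzd4), since it drops genes that are near 0 in a library, Dkk2 among them. Leaving out 1 of the 3 columns of each condition gave 3 in BLA, 4 to 6 in BLU, 6 to 7 in BLA-A, 3 in BLU-A, 7 to 9 in BLA-A against BLA and 4 in BLU-A against BLU. With the 15 columns entered as samples the edgeR test called 7 of the 32 genes, beside 3553 of all 17647 genes. The 7 were Dkk2, Sfrp1, Wnt7a, Rnf43, Tcf7l1, Tcf7l2 and Znrf3. Once a replicate block was added it called 6 (Sfrp1 was lost), beside 2498 of all genes. The replicate numbers did not pair the columns: over 30 pairs of same-numbered columns the median correlation of their deviations was -0.00197. Counting noise alone would spread these columns more widely than was seen (chi-square per degree of freedom 0.0951 to 0.475). Their spread therefore cannot stand for that of separate cultures, and the origin of the columns was not tested. With 5 libraries the count called was 0 under every other setting, including each treated library or column left out. No log2 fold change of a gene past the fold reversed. Those of Dkk2 ran from -0.87 (BLU) to -1.27 (BLA-A) at a pseudocount of 2 CPM and from -1.94 (BLU) to -4.40 (BLA-A) at 0.1 CPM. The causes were not tested. Ordering genes by mean level per kb of span kept 5 of the first 8. Without the columns numbered 2, Wnt3 did not pass the level filter and gave no value. Depth limits the genes with fewer than about 30 counts, among them Wnt3, Wnt11, Fzd9, Dkk3 and Axin2.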
